A study of Mus musculus with 18 samples.

Results

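The transcripts described here are those of 9 hepatocyte transcription factors and nuclear receptors, Hnf4a, Foxa1, Foxa2, Foxa3, Cebpa, Nr1h4, Nr1i2, Nr1i3 and Nr0b2. They were taken by gene symbol from a table of 58126 mouse genes, and all 9 had a row and passed the filter on low values. RNA was sequenced from livers of C57BL/6 mice with a liver-specific knockout of Ftcd (LKO) and of their wild-type littermates (WT). Ftcd encodes a liver enzyme that hands the formimino group from histidine breakdown to tetrahydrofolate. The 18 libraries formed 5 groups. Untreated liver of mice aged 12 months gave 3 libraries labelled WT and 3 labelled LKO. The other mice had received 20 mg/kg diethylnitrosamine (DEN), a liver carcinogen, injected intraperitoneally at 14 days of age, and their livers were collected 12 months later. They gave 6 libraries of nontumour liver labelled WT, 3 of nontumour liver labelled LKO and 3 of tumour labelled LKO. The labels name neither the driver of the knockout nor a separate animal for each replicate, so p-values measure the spread between libraries, which may be partly technical.

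Hepatocyte identity is held by a small set of transcription factors that bind each other's genes and keep the liver programme on. Hnf4a, an orphan nuclear receptor, and Cebpa, a leucine zipper factor, drive genes for plasma proteins, clotting factors and metabolism, while the Foxa forkhead proteins open closed chromatin in liver development. Nr1h4 (FXR) senses bile acids and switches on Nr0b2 (SHP), a receptor without a DNA-binding domain that lowers bile acid synthesis. Nr1i2 (PXR) and Nr1i3 (CAR) sense foreign compounds and switch on genes for their clearance, each as a dimer with Rxra.

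Values are in TPM, the share of transcripts a gene holds after correction for its length, scaled to sum to 1000000 in every library, so levels can be set side by side between genes. TPM keeps no record of sequencing depth, and the depth behind each value is unknown. Mitochondrially encoded genes held a share of all TPM that ran from 4.24% to 38.8% between libraries, and it enters the results below. Ftcd lay at 0.1 to 3.16 TPM in the 9 libraries labelled LKO and at 61.2 to 106 TPM in 6 of the 9 labelled WT. The remaining 3 libraries labelled WT (untreated replicate 3 and DEN replicates 1 and 2) had 1.77 to 2.5 TPM, which goes against their label, and results are therefore also given without them. By Xist and Y-linked transcripts, all 9 libraries labelled WT were XX, and all 3 untreated LKO libraries were XY. Replicate 1 of LKO nontumour liver and replicate 1 of LKO tumour were XX and the others of those groups XY, so genotype and sex cannot be told apart in untreated liver. All 8 hepatocyte markers (Alb, Apoa1, Ttr and others) were found, with summed levels of 21102 to 114583 TPM across the 18 libraries.

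By the GENCODE annotation on mm10, all 9 are protein-coding genes on separate loci. Hnf4a (ENSMUSG00000017950) lies at chr2:163506808-163572910 on the plus strand and Cebpa (ENSMUSG00000034957) at chr7:35119293-35121928 on the plus strand. Foxa1 (ENSMUSG00000035451) lies at chr12:57540628-57546916, Foxa2 (ENSMUSG00000037025) at chr2:148042877-148046969 and Foxa3 (ENSMUSG00000040891) at chr7:19013284-19023538, all on the minus strand. Nr1h4 (ENSMUSG00000047638) lies at chr10:89454234-89533585 and Nr1i2 (ENSMUSG00000022809) at chr16:38248323-38294824, both on the minus strand. Nr1i3 (ENSMUSG00000005677) lies at chr1:171213970-171220701 and Nr0b2 (ENSMUSG00000037583) at chr4:133553376-133556536, both on the plus strand.

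Promoter sequence is shown for Nr1i3, Nr0b2 and Nr1i2, the 3 receptors with the lowest estimates in DEN LKO against DEN WT nontumour liver. Each is the 250 bases upstream of the RefSeq transcription start on GRCm38.p6, on the gene's strand, and the start equals the annotated gene start in GENCODE for all 3. Capitals mark matches to searched motifs. The Nr1i3 window is chr1:171213720-171213969 (plus strand), that of Nr0b2 chr4:133553126-133553375 (plus strand) and that of Nr1i2 chr16:38294825-38295074 (minus strand).
Nr1i3: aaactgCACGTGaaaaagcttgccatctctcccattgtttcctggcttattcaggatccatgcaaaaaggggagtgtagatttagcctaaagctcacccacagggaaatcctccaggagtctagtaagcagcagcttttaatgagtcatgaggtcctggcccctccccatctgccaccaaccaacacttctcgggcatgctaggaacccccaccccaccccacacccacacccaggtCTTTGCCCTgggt
Nr0b2: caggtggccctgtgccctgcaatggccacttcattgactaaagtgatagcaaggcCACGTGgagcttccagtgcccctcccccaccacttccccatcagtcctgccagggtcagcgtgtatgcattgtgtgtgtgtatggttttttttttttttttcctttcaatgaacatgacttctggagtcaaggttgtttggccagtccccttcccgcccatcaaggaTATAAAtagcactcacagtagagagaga
Nr1i2: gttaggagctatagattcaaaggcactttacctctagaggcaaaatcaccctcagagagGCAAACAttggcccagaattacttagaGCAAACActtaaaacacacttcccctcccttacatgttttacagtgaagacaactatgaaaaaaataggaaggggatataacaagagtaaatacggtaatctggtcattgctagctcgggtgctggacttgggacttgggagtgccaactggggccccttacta
Motifs were searched on both strands in all 32851 promoters of this length in the table. Those reported here were CAAAGTCCA and AGGNCAAAG for Hnf4a-type repeats, TGTTTAC and TGTTTGC for forkhead factors, TTGCNNAA for C/EBP, AGGTCA as the receptor half-site and CAAGGTCA, which holds it, for LRH-1, the E-box CACGTG, and TATAAA. The Nr1i3 window holds a match to AGGNCAAAG on the minus strand at -13 to -5 from the start, and 1.8% of all promoters hold this motif. It also holds CACGTG at -244 to -239, as the Nr0b2 window does at -195 to -190 (6.02% of promoters). The Nr0b2 window has a TATAAA at -28 to -23 (12.4% of promoters). The Nr1i2 window holds TGTTTGC on the minus strand at -191 to -185 and at -164 to -158 (4.3% of promoters), and no motifs overlapped in these windows. Among the promoters of the other factors, that of Foxa1 holds TGTTTAC (3.17% of promoters) and that of Nr1h4 holds AGGTCA (14% of promoters), while TATAAA occurs in those of Foxa2, Foxa3 and Cebpa. Such matches are letters in a window, and binding was not measured.

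Cebpa was the most abundant of the 9 transcripts in 15 of 18 libraries, with a median over all libraries of 96.5 TPM (range 42.1 to 179). Hnf4a had a median of 71 TPM (29.6 to 188) and Nr1i3 one of 51.9 TPM (19.1 to 103). Nr1h4 followed at 40.4 TPM (19.8 to 75.1) and held the fourth place among the 9 in 15 libraries. Nr1i2 had a median of 21.8 TPM (10.3 to 44.7), Nr0b2 one of 15.1 TPM (4.11 to 58.3) and Foxa3 one of 13.9 TPM (7.29 to 34.2). Foxa2 lay at 4.37 TPM (0.82 to 13.7) and Foxa1 at 1.5 TPM (0.77 to 4.73), the lowest of the 9 in 16 libraries. The spread between libraries differed between the genes, since the highest library exceeded the lowest by 3.78 times for Nr1h4 but by 14.2 times for Nr0b2 and 16.7 times for Foxa2.

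**Figure D1:**
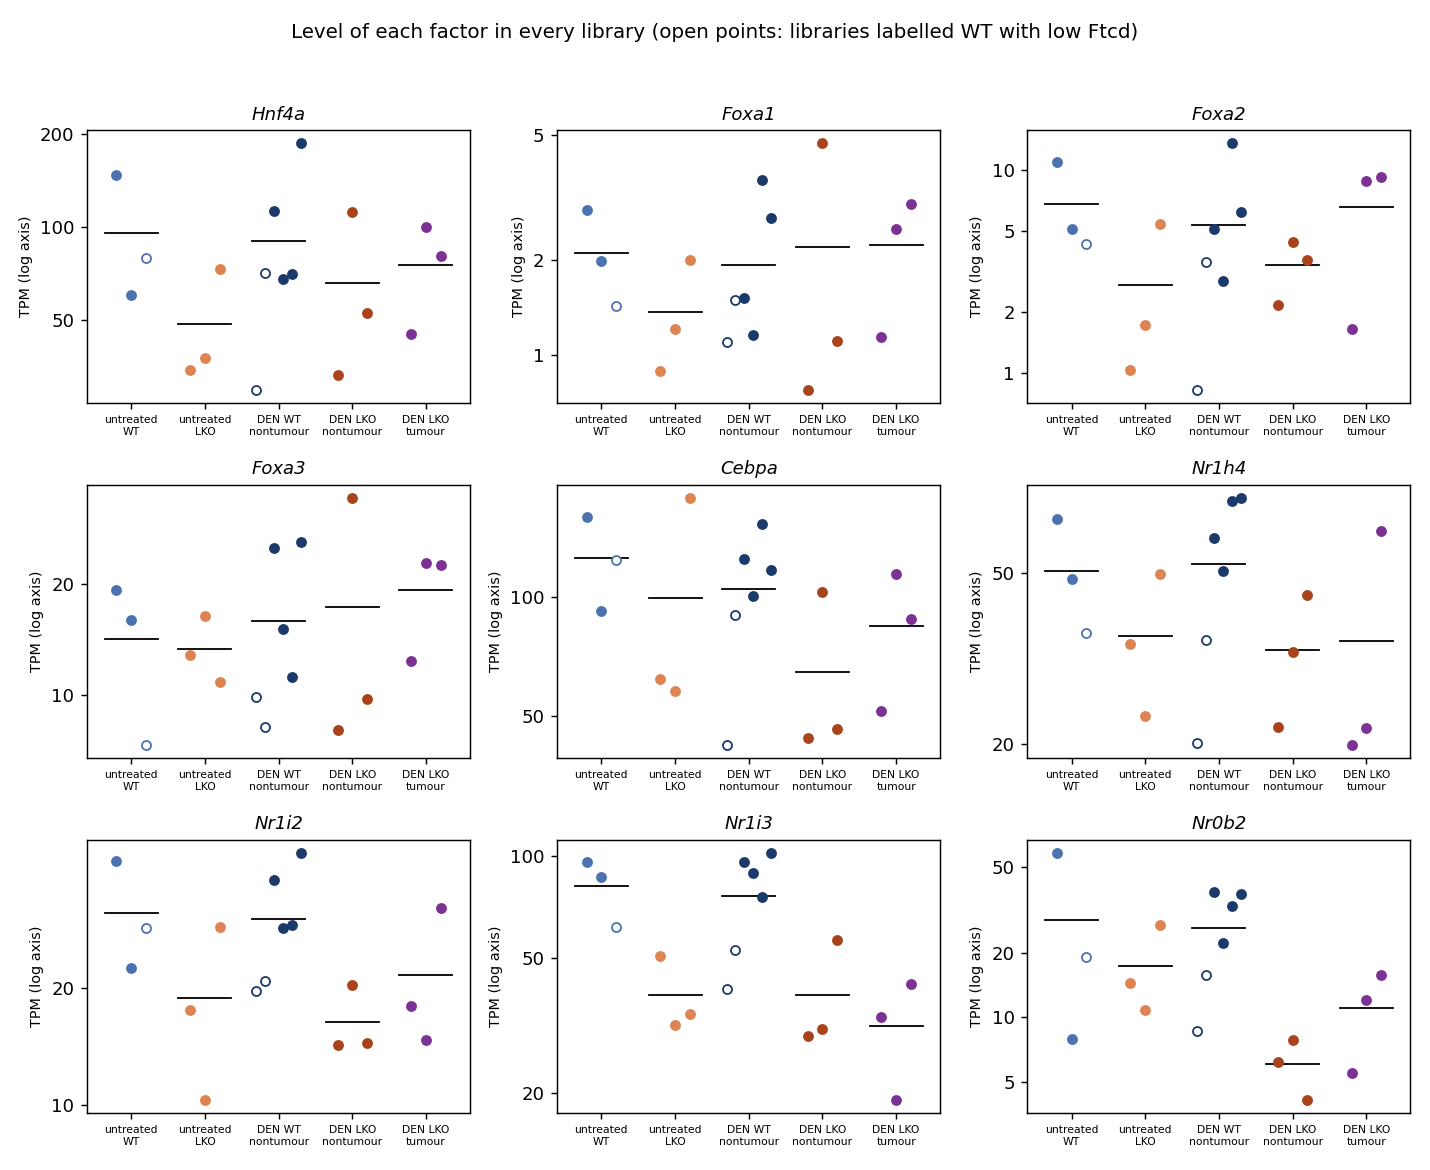
Level of each of the 9 factors in TPM (log axis) in every library, by group; each point is a library, lines are group means, and open points are the 3 libraries labelled WT with low Ftcd. Within-group spread is wide for every factor, Nr1i3 is highest in the 6 other libraries labelled WT (75.9 to 103 TPM), and Nr0b2 is lowest in DEN LKO nontumour liver (4.11 to 7.81 TPM).

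Each comparison was tested over all 13872 genes that passed the filter, with limma on log2(TPM + 1) and Benjamini-Hochberg adjustment, at a threshold of 0.05 on the adjusted p. None of the 9 factors passed in any of the 6 comparisons between groups, or in the test of whether the genotype difference changed with DEN. Few genes of any kind passed. The share of tested genes called was 0.433% between untreated LKO and WT, 0.0577% between DEN LKO and DEN WT nontumour liver, 0.497% between LKO tumour and DEN WT liver and 0.0649% between DEN LKO nontumour and untreated LKO liver. It was 0% for tumour against LKO nontumour liver, for DEN WT against untreated WT liver and for the interaction, where 2.74%, 0.685% and 2.39% of genes had an unadjusted p under 0.05. A factor that did not pass is not thereby shown to be unchanged: between the untreated genotypes the 95% interval of the log2 fold change ran from -1.31 to 0.53 for Foxa1 and from -2.23 to 0.34 for Hnf4a.

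**Figure D2:**
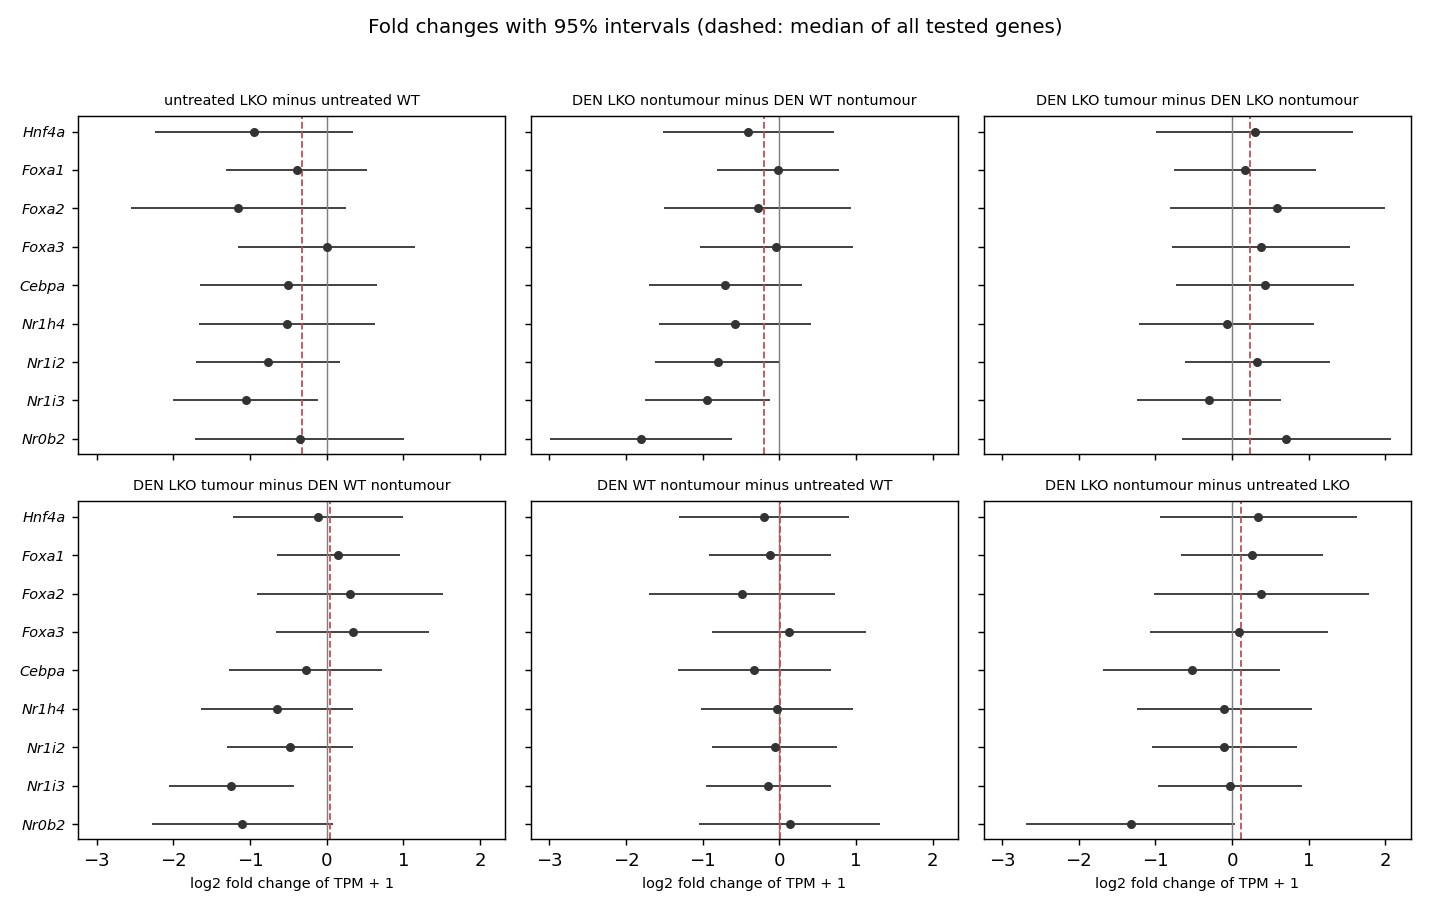
Log2 fold change of TPM + 1 (horizontal axis) for the 9 factors in the 6 comparisons between groups; points are limma estimates, bars their 95% intervals, and dashed lines the median of all 13872 tested genes. Intervals that leave out 0 are those of Nr1i3 in 3 comparisons and of Nr0b2 between DEN LKO and DEN WT nontumour liver, and neither gene passed after adjustment.

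The first question is what loss of Ftcd did without a carcinogen. In untreated liver 8 of the 9 factors were lower in LKO than in WT libraries, at a median log2 fold change of -0.51, and 1 of the 9 had an unadjusted p under 0.05, against 4.15% of all genes. All tested genes had a median of -0.33 and 76.1% of them were below 0, so a shift of this direction was shared by most of the transcriptome. Scaling the libraries by median ratios moved the all-gene median to 0.00 and put Cebpa at 0.00 and Nr0b2 at 0.14. The median of the 9 was then -0.08 (6 below 0), and -0.03 (5 below 0) with the mitochondrial share as a covariate, beside all-gene medians of 0.00 and 0.03. With XX or XY as a covariate it was -1.29 (9 below 0), beside -0.95. That term rests on the 2 DEN LKO groups, which hold both sexes. Their XX libraries had mitochondrial shares of 36.9% and 31.4%, and their XY libraries 10.5% to 19.2%. Sex and share therefore cannot be told apart in this term, in any fit that uses it. Of the 8 hepatocyte markers 7 were below 0 between the untreated genotypes in the main fit (median -0.67), and none was at 0 everywhere. Their summed levels were 21102 to 54825 TPM in LKO and 43706 to 77228 TPM in WT libraries. All 7 macrophage markers were below 0 as well (median -0.99, summed 26.4 to 50.7 against 50.5 to 128 TPM). Of the 3 red cell markers Alas2, an enzyme of heme synthesis, rose (3.25 ± 0.59, adjusted p = 0.0137 by limma), with a summed level of 439 to 1036 against 346 to 821 TPM. The part of these markers in the factors' values was not tested.

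Nr1i3 was at 96, 87.1 and 61.9 TPM in untreated WT and at 50.7, 31.9 and 34.2 TPM in untreated LKO libraries. The groups did not overlap, with every LKO library below every WT library, a pattern shared by 8.97% of all tested genes, and 2.45% had every LKO library above. The log2 fold change was -1.06 ± 0.45 (SE, n = 3 and 3, adjusted p = 0.831 by limma). Relative to the median of all genes it was -0.73, and with median-ratio scaling -0.55 ± 0.39. Without the low-Ftcd library labelled WT it was -1.24 ± 0.45.

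Among the core factors, Hnf4a was at 148, 60.5 and 79.5 TPM in untreated WT and at 34.6, 37.9 and 73.5 TPM in untreated LKO liver. The single library of WT replicate 1 stood well above the rest, and the groups overlapped. The log2 fold change was -0.95 ± 0.61 (SE, n = 3 and 3, adjusted p = 0.831 by limma), and with XX or XY as a covariate -2.03 ± 0.82 (adjusted p = 0.187 by limma). Foxa2 showed the same layout, with 11, 5.16 and 4.32 TPM in WT and 1.04, 1.73 and 5.42 TPM in LKO libraries. Its estimate of -1.15 ± 0.67 was the lowest of the 9, below that of all but 4.3% of tested genes. Cebpa had its highest value of all 18 libraries in an LKO library, at 62, 57.9 and 179 TPM in LKO against 160.2, 92.3 and 125 TPM in WT liver. Foxa3 had an estimate of 0.00 ± 0.55 (95% interval -1.16 to 1.16), and Foxa1 was at -0.39 ± 0.44.

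Among the receptors, Nr1i2 was at 42.6, 22.6 and 28.6 TPM in untreated WT and 17.5, 10.3 and 28.8 TPM in untreated LKO libraries. The groups overlapped by the last LKO library (-0.76 ± 0.45, adjusted p = 0.831 by limma). Nr1h4 was at 66.9, 48.6 and 36.3 TPM against 34.3, 23.2 and 49.7 TPM, with a log2 fold change of -0.51 ± 0.55. Nr0b2 ranged so widely in untreated WT liver, from 7.88 over 19 to 58.3 TPM, that the LKO values of 14.4, 10.8 and 27 TPM fell inside that range.

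The same genotypes were compared in nontumour liver after DEN, to see whether the knockout mattered in carcinogen-exposed tissue. All 9 factors were estimated lower in LKO libraries, at a median log2 fold change of -0.58, against -0.19 for all tested genes, of which 62% were below 0. This direction turned with the mitochondrial share as a covariate, where 4 of the 9 were below 0 and their median was 0.24 beside 0.21 for all genes. With a block for each replicate number the median was -0.14 (6 below 0) beside 0.02. That fit rests on DEN WT replicates 1 to 3, which share a number with LKO libraries. Of these, replicates 1 and 2 have low Ftcd. With XX or XY as a covariate the median was -1.13 (9 below 0) beside -0.63. Of the 9, 2 had an unadjusted p under 0.05 (Nr0b2 and Nr1i3), against 13.1% of all genes.

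Nr0b2 was at 6.21, 7.81 and 4.11 TPM in DEN LKO nontumour liver. In the 6 DEN WT libraries the lowest value was 8.65, the median 27.5 and the highest 38.3 TPM. The groups did not overlap, as in 1.73% of tested genes with lower and 2.33% with higher values in LKO. The log2 fold change was -1.81 ± 0.56 (SE, n = 3 and 6), a level of 0.286 of that in DEN WT on the TPM + 1 scale, with an unadjusted p of 0.00494 and an adjusted p of 0.291 by limma. Without the 3 low-Ftcd libraries labelled WT it was -2.26 ± 0.56 and passed (adjusted p = 0.0331 by limma), in a fit where 1159 of the tested genes passed. With the mitochondrial share as a covariate it was -0.90 ± 0.48 (adjusted p = 0.679 by limma). That share was 17.8% to 36.9% in the LKO libraries and 4.39% to 38.8% in the DEN WT libraries. Without DEN WT replicates 1 and 2 it was 4.39% to 9.82% in DEN WT liver, below every LKO library. Share and genotype therefore cannot be told apart in the fit that passed.

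The 3 DEN LKO nontumour libraries were also lower in Nr0b2 than all 12 other nontumour libraries, whose lowest value was 7.88 TPM, in untreated WT liver. Of all tested genes, 0.281% had this order. Against untreated LKO liver (14.4, 10.8 and 27 TPM) the log2 fold change was -1.32 ± 0.65 (SE, n = 3 and 3, adjusted p = 0.864 by limma), again without overlap, as in 2.46% of genes on the lower side and 9.86% on the higher. The genotype difference with DEN minus that without DEN was -1.45 ± 0.86 for Nr0b2 (adjusted p = 1 by limma, 95% interval -3.26 to 0.35). A change of the genotype difference with DEN was therefore not shown for Nr0b2, and for the other 8 factors the estimates ran from -0.20 to 0.87. Of the 9 interaction estimates 5 were below 0, against 40.8% over all tested genes.

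Nr1i3 was at 29.5, 30.9 and 56.7 TPM in DEN LKO nontumour liver, while in DEN WT liver the lowest value was 40.7, the median 82.6 and the highest 103 TPM. The overlap came from LKO replicate 3 and from DEN WT replicates 1 and 2, both of low Ftcd. The log2 fold change was -0.94 ± 0.39 (SE, n = 3 and 6, adjusted p = 0.354 by limma). Without the low-Ftcd libraries it was -1.25 ± 0.37 (adjusted p = 0.0501 by limma), and -0.50 ± 0.36 once the mitochondrial share entered the fit. Relative to untreated LKO liver, where Nr1i3 was at 50.7, 31.9 and 34.2 TPM, DEN LKO nontumour liver showed -0.03 ± 0.45.

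Nr1i2, the partner sensor of foreign compounds, was at 14.2, 20.4 and 14.4 TPM in DEN LKO nontumour liver, against a lowest value of 19.7, a median of 28.9 and a highest value of 44.7 TPM in DEN WT liver. A single LKO library reached into the WT range, and the log2 fold change was -0.80 ± 0.39 (SE, n = 3 and 6, adjusted p = 0.383 by limma). Cebpa was at 44.1, 103 and 46.3 TPM in LKO against a lowest value of 42.1, a median of 109 and a highest value of 154 TPM in DEN WT liver (-0.70 ± 0.48). Nr1h4 was at 21.9, 32.8 and 44.5 TPM in LKO, and in DEN WT liver at 20.1 as the lowest, 55.5 as the median and 75.1 TPM as the highest value (-0.58 ± 0.47). Hnf4a was estimated at -0.41 ± 0.53, Foxa2 at -0.29 ± 0.58, Foxa3 at -0.04 ± 0.48 and Foxa1 at -0.01 ± 0.38. With median-ratio scaling Foxa1 and Foxa3, and with quantile normalization Hnf4a and Foxa3, took the opposite sign. With the mitochondrial share as a covariate 5 did, among them Hnf4a (0.43 ± 0.45), Foxa1 (0.43 ± 0.38) and Foxa3 (0.49 ± 0.48).

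None of the 8 hepatocyte markers passed in this comparison. Of them 7 were below 0, at a median log2 fold change of -1.19, beside -0.19 and 62% below 0 for all genes. Their summed level was 34380 to 71923 TPM in DEN LKO nontumour and 28088 to 114583 TPM in DEN WT liver. Of the 6 cholangiocyte markers 1 was below 0, with summed levels of 16.1 to 182 TPM in LKO and 5.96 to 66.2 TPM in WT libraries. No marker of either list was at 0 in all libraries, and the part of these shifts in the factors' values was not tested. In bulk tissue, fewer hepatocytes and less of a transcript per hepatocyte cannot be told apart.

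Tumours were compared with nontumour liver of the same knockout genotype. Of the 9 factors 7 were higher in tumour, at a median log2 fold change of 0.33 beside 0.23 for all genes, of which 30.7% were below 0. None of the 9 had an unadjusted p under 0.05, and the ranges of the groups overlapped for each, while 2.02% of all genes were lower and 1.81% higher without overlap. With a block for each replicate number none passed either (lowest adjusted p = 0.768 by limma), at the same median. Nr0b2 had the highest estimate (0.71 ± 0.65), with 5.48, 12 and 15.7 TPM in tumour against 6.21, 7.81 and 4.11 TPM. Nr1i3, at 33.7, 19.1 and 42.1 TPM in tumour, had the lowest (-0.30 ± 0.45). Foxa2 was at 1.65, 8.87 and 9.28 TPM in tumour and 2.17, 4.41 and 3.61 TPM in LKO nontumour liver (0.59 ± 0.67). Hnf4a, at 45.3, 101 and 80.7 TPM in tumour, was within the range of 33.3 to 112 TPM of LKO nontumour liver (0.29 ± 0.61). Loss of Hnf4a or Cebpa transcripts from the tumours was not detected with 3 libraries a group: the 95% interval of Hnf4a was -0.99 to 1.58, and Cebpa, at 51.5, 115 and 88.1 TPM, had one of -0.73 to 1.58.

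Against DEN WT nontumour liver, which differs from LKO tumour in both genotype and tissue, 6 of the 9 factors were below 0 in tumour, at a median log2 fold change of -0.27 beside 0.04 for all genes, of which 47.1% were below 0. The median of the 9 turned to 0.20 (4 below 0) with the mitochondrial share as a covariate, to 0.04 (4 below 0) without tumour replicate 1 and to 0.04 (4 below 0) with the replicate block, and was -0.80 (9 below 0) with XX or XY as a covariate. The block again rests on DEN WT replicates 1 to 3. None of the 9 was without overlap, against 1.14% of genes lower and 2.05% higher. Nr1i3 was again the lowest, at 33.7, 19.1 and 42.1 TPM in tumour against 40.7 to 103 TPM in DEN WT liver. All 3 tumour values lay below 5 of the 6 WT values, and replicate 3 of the tumours exceeded DEN WT replicate 1. The log2 fold change was -1.24 ± 0.39 (SE, n = 3 and 6), with an unadjusted p of 0.00507 and an adjusted p of 0.179 by limma, and 10.5% of all genes had an unadjusted p under 0.05. Without the low-Ftcd libraries labelled WT it was -1.56 ± 0.37 and passed (adjusted p = 0.0359 by limma), in a fit that called 420 genes. The mitochondrial share, 10.5% to 31.4% in tumour, gave -0.93 ± 0.33 as a covariate. In the DEN WT libraries of the fit that passed this share was 4.39% to 9.82%, below all 3 tumours. Share and group therefore cannot be told apart in that fit. The 8 hepatocyte markers had a median of -1.40 (7 below 0), with summed levels of 28663 to 78152 TPM in tumour and 28088 to 114583 TPM in DEN WT liver, and their part was not tested. Nr0b2 was at -1.10 ± 0.56 in the same comparison (adjusted p = 0.52 by limma), while Foxa1, Foxa2 and Foxa3 had estimates of 0.15, 0.30 and 0.34. This comparison shares its WT libraries with that of DEN LKO nontumour liver, so the 2 low values of Nr1i3 are not independent.

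Between untreated and DEN WT liver the log2 fold changes of the 9 factors ran from -0.49 (Foxa2) to 0.13 (Nr0b2). Their median was -0.12 beside 0.01 for all genes, 7 of the 9 and 47.3% of all genes were below 0, and none of the 9 was without overlap (0.18% of genes lower, 0.49% higher). Without the low-Ftcd libraries the median turned to 0.06, with 3 of the 9 below 0, without untreated WT replicate 1 to 0.16 and without DEN WT replicate 1 to 0.05. Nr1h4, Nr1i2 and Nr1i3 had estimates of -0.03 ± 0.47, -0.06 ± 0.39 and -0.15 ± 0.39. The 95% interval of Nr1i3 was -0.96 to 0.67. In LKO nontumour liver 5 of the 9 factors were below 0 after DEN, at a median of -0.03 beside 0.12 for all genes, of which 38% were below 0, and Nr0b2 was the lowest. That median was 0.17 (3 below 0) with XX or XY as a covariate.

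Set in order of their means, both WT groups came before the LKO groups for 6 of the 9 factors, Hnf4a, Cebpa, Nr1h4, Nr1i2, Nr1i3 and Nr0b2. The share of all tested genes with this order was not computed. Of all genes, 76.1% were estimated lower in LKO in untreated liver and 62% in DEN nontumour liver, so the order may be common. For Nr1i3, untreated WT liver had a mean of 81.7 ± 17.7 TPM (SD, n = 3), followed by 76.2 ± 24.7 (n = 6) in DEN WT, 39 ± 15.3 (n = 3) in DEN LKO nontumour, 38.9 ± 10.3 (n = 3) in untreated LKO and 31.6 ± 11.7 TPM (n = 3) in LKO tumour. The ranges of all neighbours in this order overlapped, as they did for the other 8 factors, so no step of the order exceeded the spread between libraries. For Nr0b2 the order ran from 28.4 ± 26.5 TPM in untreated WT over 25.9 ± 12.3 in DEN WT, 17.4 ± 8.5 in untreated LKO and 11.1 ± 5.2 in tumour to 6.04 ± 1.86 TPM in DEN LKO nontumour liver. For Foxa3 tumour came first (19.2 ± 5.94 TPM) and untreated LKO last (13.3 ± 2.79 TPM).

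Across single libraries, Nr1i3 separated those of high from those of low measured Ftcd. It did not follow the Ftcd level among the high ones, where DEN WT replicate 5 had the most Ftcd (106 TPM) and the least Nr1i3 (75.9 TPM). Its 6 highest libraries, at 75.9 to 103 TPM, were the 6 labelled WT with Ftcd of 61.2 TPM or more, and the other 12 libraries, of either label, lay at 19.1 to 61.9 TPM. Of all tested genes 1.74% had these 6 libraries on top and 0.0433% had them at the bottom. None of the other 8 factors had this order. The 6 libraries were all XX and had mitochondrial shares of 4.24% to 10%. The 3 low-Ftcd libraries labelled WT and replicate 1 of both DEN LKO groups were XX as well. Of these, DEN WT replicate 2, with a share of 6.47% and Ftcd of 2.5 TPM, had 53 TPM of Nr1i3. The part of sex and of the mitochondrial share in this order was not tested. The 2 XX libraries labelled LKO, 1 of nontumour liver and 1 of tumour, allow a comparison within 1 sex. They lay below all 9 XX libraries labelled WT for Nr1i3 (29.5 and 33.7 against 40.7 to 103 TPM), Nr1i2 (14.2 and 18 against 19.7 to 44.7 TPM) and Nr0b2 (6.21 and 5.48 against 7.88 to 58.3 TPM). That order held in 12.3% of tested genes, and these 2 libraries had mitochondrial shares of 36.9% and 31.4%, near the top of the series.

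The factors varied together between libraries, and with the mitochondrial share. Nr1h4 had the closest relation, with a Pearson r of -0.835 between log2(TPM + 1) and the log2 mitochondrial share over 18 libraries (permutation p = 2e-05 with 100000 permutations, adjusted over all tested genes 0.000247) and a Spearman rho of -0.804 (permutation p = 7e-05, adjusted 0.000641). Without the 2 libraries farthest from the median share it was -0.817, within the 6 DEN WT libraries -0.834, and from deviations from group means -0.816. Nr0b2 had r = -0.752 (adjusted permutation p = 0.00178), Nr1i2 -0.741 (0.00178), Hnf4a -0.733 (0.002), Nr1i3 -0.729 (0.00282), Foxa2 -0.708 (0.00363) and Cebpa -0.692 (0.00568). Foxa1 (r = -0.491, adjusted permutation p = 0.0645) and Foxa3 (-0.377, 0.172) did not pass by r, and by Spearman's rho Foxa1 passed (-0.604, 0.0184) while Foxa3 did not (-0.397, 0.146). Spearman's rho of the 7 that passed by r was -0.662 to -0.804, with adjusted permutation p from 0.000641 to 0.00961. Without the 2 farthest libraries r of these 7 was -0.63 to -0.817, and within DEN WT liver -0.631 to -0.931. Of all tested genes 48.1% passed with a negative r and the median r was -0.487, so the relation is not particular to these factors. A larger mitochondrial share lowers every other TPM value in a library by the way TPM is made, and the part of this in the group differences was not tested beyond the covariate fits above.

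**Figure D3:**
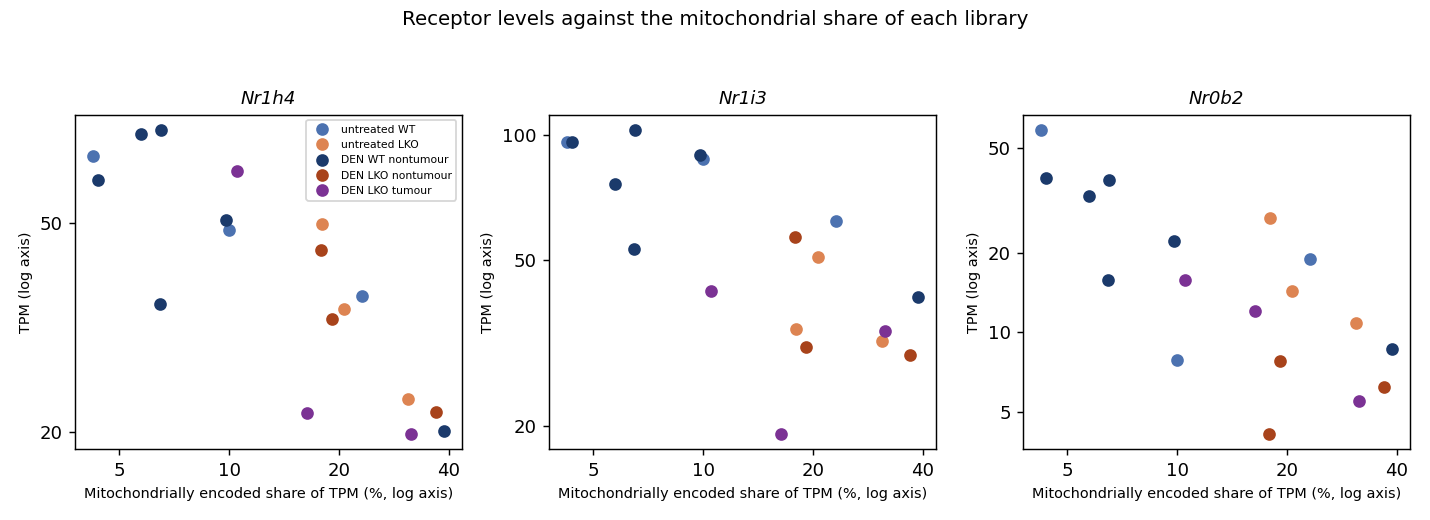
Levels of Nr1h4, Nr1i3 and Nr0b2 in TPM (vertical, log axis) against the mitochondrially encoded share of TPM in percent (horizontal, log axis); each point is a library, coloured by group. All 3 fall from left to right (r = -0.835, -0.729 and -0.752 over 18 libraries), and libraries labelled WT fill the left side at shares of 4.24% to 10%, apart from 2.

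Single libraries followed the mitochondrial share in part. LKO nontumour replicate 1, with a mitochondrial share of 36.9%, was among the 4 lowest libraries for 8 of the 9 factors, and DEN WT replicate 1, with 38.8%, for 5. Untreated WT replicate 1, with the lowest share of 4.24%, was among the 4 highest for 8 factors. Other libraries did not follow it. LKO nontumour replicate 3, with 17.8%, was among the 4 lowest for 5 factors and untreated WT replicate 3, with 23.2%, for 1. DEN WT replicate 2, with 6.47%, was among the 4 highest for 0. How all tested genes rank in these libraries was not computed. Between factors, as a description over the same 18 libraries with no test, Pearson's r of log2(TPM + 1) was highest for Cebpa with Nr0b2, Nr1h4 with Nr1i2 and Nr1i2 with Nr0b2 (0.81 each). It was lowest for Nr1i3 with Foxa3 (0.07) and with Foxa1 (0.08). Nr1i3 thus varied with the receptors Nr1h4 (0.78) and Nr1i2 (0.71) more than with Hnf4a (0.41) or Cebpa (0.37).

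By the same measure over 5595 genes with a mean of 5 TPM or more, 3 genes with the pattern most like each factor were named. Nr1i3 was most like Lcat (r = 0.946), which esterifies cholesterol in plasma, Tmem86b (0.932) and Agt (0.925), which encodes angiotensinogen. Nr1h4 was most like Dera (0.955), Baat (0.953), which conjugates bile acids to amino acids, and Cyc1 (0.951), a subunit of respiratory complex III. Nr0b2 was most like Oaz1 (0.951), Acads (0.949) and St3gal3 (0.944), Nr1i2 like Scly (0.942), Mif4gd (0.936) and Crat (0.933), and Cebpa like Tusc2 (0.956), Adi1 (0.955) and Spryd7 (0.929). Hnf4a was most like Epb41 (0.947), Atxn7l3b (0.943) and Fam168b (0.942), and Foxa2 like Depdc7 (0.928), Ppif (0.916) and Usf1 (0.912). Likeness was lower for Foxa1, with B4galt5 (0.85), Znrd1 (0.844) and B4galt1 (0.842), and for Foxa3, with Bpgm (0.812), Wdr43 (0.808) and Lrg1 (0.796).

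Of the 3 Foxa paralogues Foxa3 had the highest level in all libraries but 1. Foxa3 made up 39.2% to 86.9% of their summed TPM (mean 70.2% ± 12.4, SD, n = 18), Foxa2 6.96% to 48.1% and Foxa1 4.81% to 12.7%. The lowest Foxa3 share, in DEN WT replicate 5, was also the single library in which Foxa2 (13.7 TPM) exceeded Foxa3 (11.2 TPM). Foxa2 lay below Foxa1 in DEN WT replicate 1 (6.96% against 9.33%) and LKO nontumour replicate 2 (10.2% against 10.9%). The Foxa3 share was 55.9% to 69% in untreated WT and 59.4% to 86.9% in untreated LKO liver, so the ranges overlapped. What scales a whole library cancels in a ratio between receptors, while other differences between libraries do not. Nr0b2 per Nr1h4, its activator, was 0.092 to 0.284 in DEN LKO nontumour liver, below the 0.43 to 0.635 of DEN WT and the 0.419 to 0.543 of untreated LKO liver. In tumour the ratio was 0.25 to 0.554 and in untreated WT liver 0.162 to 0.872, both overlapping it. Nr1i3 per Nr1i2 was 1.29 to 1.87 in tumour and 2.07 to 3.13 in DEN WT liver, and its ranges in untreated LKO (1.19 to 3.10) and DEN LKO nontumour liver (1.51 to 3.93) overlapped that of the tumours. Cebpa per Hnf4a in DEN LKO nontumour liver (0.875 to 1.33) overlapped DEN WT (0.624 to 2.17) and lay below untreated LKO liver (1.53 to 2.43). Nr1i3 per Hnf4a (0.275 to 1.07) overlapped both (0.546 to 1.37 and 0.465 to 1.46). The share of gene pairs that separate groups in this way was not computed. Nr0b2 by itself was also lower in DEN LKO nontumour than in DEN WT and untreated LKO liver without overlap.

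**Figure D4:**
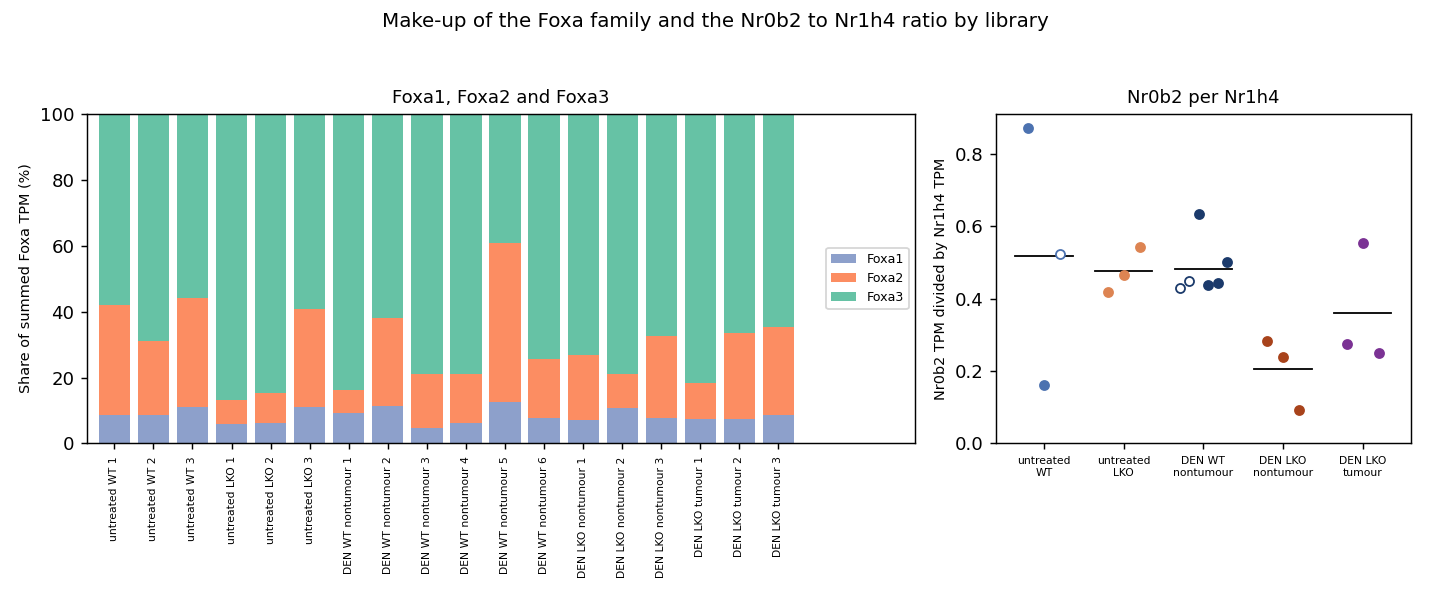
Left, share of summed Foxa TPM (percent) held by Foxa1, Foxa2 and Foxa3 in each library; right, Nr0b2 TPM divided by Nr1h4 TPM in each library by group, with lines at group means and open points for libraries labelled WT with low Ftcd. Foxa3 holds 39.2% to 86.9% of the family in every library, and the ratio in DEN LKO nontumour liver (0.092 to 0.284) lies below all DEN WT and untreated LKO values.

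Target genes of the factors were summarised as lists from general knowledge, and the lists were not independent of earlier results on these data. In untreated liver the 22 Hnf4a targets had a median log2 fold change between genotypes of -0.65 (20 below 0), the 12 Cebpa targets -0.71 (10 below 0) and the 12 tested Foxa targets -0.72 (10 below 0). All tested genes had a median of -0.33 there, with 76.1% of them below 0. In DEN nontumour liver the medians of these lists were -0.71, -1.13 and -1.04, beside -0.19 for all genes. None of these targets passed in any of the 6 comparisons. Alb, a target of both Cebpa and Foxa, was at 21450 to 35846 TPM in untreated WT and 7025 to 19139 TPM in untreated LKO liver (-1.37 ± 0.65, adjusted p = 0.831 by limma). These ranges did not overlap, as in 8.97% of tested genes on the lower side and 2.45% on the higher. In DEN nontumour liver Alb overlapped, at 14324 to 32343 TPM in LKO and 9963 to 59439 TPM in WT libraries. Apoc3, an Hnf4a target, was at -0.94 ± 0.52 in untreated and 0.14 ± 0.45 in DEN nontumour liver. Ttr, which carries thyroid hormone in plasma, was at -0.81 ± 0.58 and -0.73 ± 0.50. Glucose 6-phosphatase (G6pc, a Cebpa target) was at -0.05 ± 1.06 and -1.20 ± 0.92, and Igfbp1, a Foxa target, at -1.20 ± 1.55 in untreated liver, with errors near or above the size of the estimates.

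None of the listed bile acid genes passed between DEN LKO and DEN WT nontumour liver. The 13 tested Nr1h4 targets had a median of -0.23 (8 below 0) beside -0.19 for all genes, of which 62% were below 0. Abcb11, the bile salt export pump, was at -0.06 ± 0.40. Of the 5 bile acid genes that Nr0b2 lowers, 4 were below 0 (median -0.59), among them Cyp7a1 (-0.34 ± 0.80), the rate-limiting enzyme of bile acid synthesis, and Cyp8b1 (-0.59 ± 0.84). Slc51b, a bile acid exporter, was at 71.7 TPM in LKO tumour replicate 3 and at 4.34 TPM or less in the 17 other libraries. The same tumour had 62.9 TPM of Nr1h4, against 19.8 and 21.7 TPM in the other tumours. Nr1h4 was higher still in untreated WT replicate 1 (66.9 TPM) and DEN WT replicates 5 and 6 (73.7 and 75.1 TPM). These are among the 17 libraries with little Slc51b.

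The Nr1i3 targets were the one list with genes that passed in more than 1 comparison. Between the untreated genotypes 2 of 14 tested targets fell in LKO, Cyp2b9 (log2 fold change -5.51 ± 0.84, adjusted p = 0.00273 by limma) and Cyp2b13 (-6.13 ± 0.98, adjusted p = 0.00355), and the list's median was -1.45 beside -0.33 for all genes, of which 0.433% passed. In LKO tumour against DEN WT liver 4 of 14 fell, Cyp2b13 (-5.21 ± 0.85), Cyp2b9 (-4.15 ± 0.73), Cyp2c37 (-3.95 ± 0.77) and Ces2a (-2.02 ± 0.37), with adjusted p from 0.01 to 0.0261 by limma and a list median of -2.11 beside 0.04 for all genes, of which 0.497% passed. Between DEN LKO and DEN WT nontumour liver 0 of 14 passed, 7 had an unadjusted p under 0.05 (13.1% of all genes), and the median was -1.46 beside -0.19. The fall was not shared by the whole list. Of the 14 targets, 10 were below 0 in untreated liver (76.1% of all genes) and 9 in DEN nontumour liver (62%). In tumour against DEN WT liver 10 were (47.1%). Cyp2b10, the classical Nr1i3 target in mouse liver, was at 5.69, 4.48 and 5.02 TPM in untreated WT and 0.17, 0.11 and 0.54 TPM in untreated LKO liver (-2.26 ± 0.61, adjusted p = 0.225 by limma). In DEN WT liver it had a lowest value of 1.72 and a highest of 16.2 TPM, and in DEN LKO nontumour liver it was at 1.35, 0.24 and 0.07 TPM. All WT libraries were XX, while all untreated LKO libraries and 2 of the DEN LKO nontumour libraries were XY. The part of sex in the Cyp2b10 values was not tested.

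Cyp2b9 and Cyp2b13 are known to be higher in female than in male mouse liver, as is Cux2, on the list of other hepatocyte factors, which fell in untreated LKO liver (-3.01 ± 0.47, adjusted p = 0.00289 by limma). Sex and genotype cannot be told apart in that comparison, and the part of sex in these calls was not tested. With XX or XY as a covariate, a term that rests on the 2 LKO groups that hold both, folds in untreated liver were -2.74 ± 0.68 for Cux2, -4.48 ± 1.21 for Cyp2b9 and -3.35 ± 1.13 for Cyp2b13, and none passed (adjusted p = 0.0963 to 0.164 by limma). In the tumour comparison they were -3.46 for Cyp2b9, -3.36 for Cyp2b13, -2.74 for Cyp2c37 and -1.87 for Ces2a, and none passed (adjusted p = 0.288 to 0.535). In the XX libraries labelled LKO, Cyp2b9 was at 26.5 TPM in nontumour liver and 8.5 TPM in tumour, and Cyp2b13 at 13.8 and 7.13 TPM, against lowest values of 25.5 and 18.4 TPM in libraries labelled WT. The 4 tumour calls were also lost without tumour replicate 2 (adjusted p = 0.0585 to 0.164 by limma) or replicate 3 (0.0561 to 0.087), with folds of -4.66 and -4.87 for Cyp2b13, -4.25 and -3.77 for Cyp2b9, -2.71 and -4.05 for Cyp2c37 and -1.71 and -2.03 for Ces2a. They were lost as well when only the groups compared were fitted, at the same folds (adjusted p = 0.102 to 0.214 by limma), and with the replicate block (0.473). Ces2a did not pass without DEN WT replicate 3, nor Cyp2c37 without any one of DEN WT replicates 3 to 6 or with no filter on low values. The Cyp2b and Cyp2c genes have near-identical copies, so how reads were shared between them is uncertain. Ces2a, a carboxylesterase listed as a target of both Nr1i2 and Nr1i3, was at 50.8, 21.3 and 33.9 TPM in tumour and at 85.2 to 247 TPM in the 15 other libraries. Among the other 11 tested Nr1i2 targets 0 passed in this comparison, and Cyp3a11, the classical one, ran from 14.9 to 1071 TPM between the tumours.

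**Figure D5:**
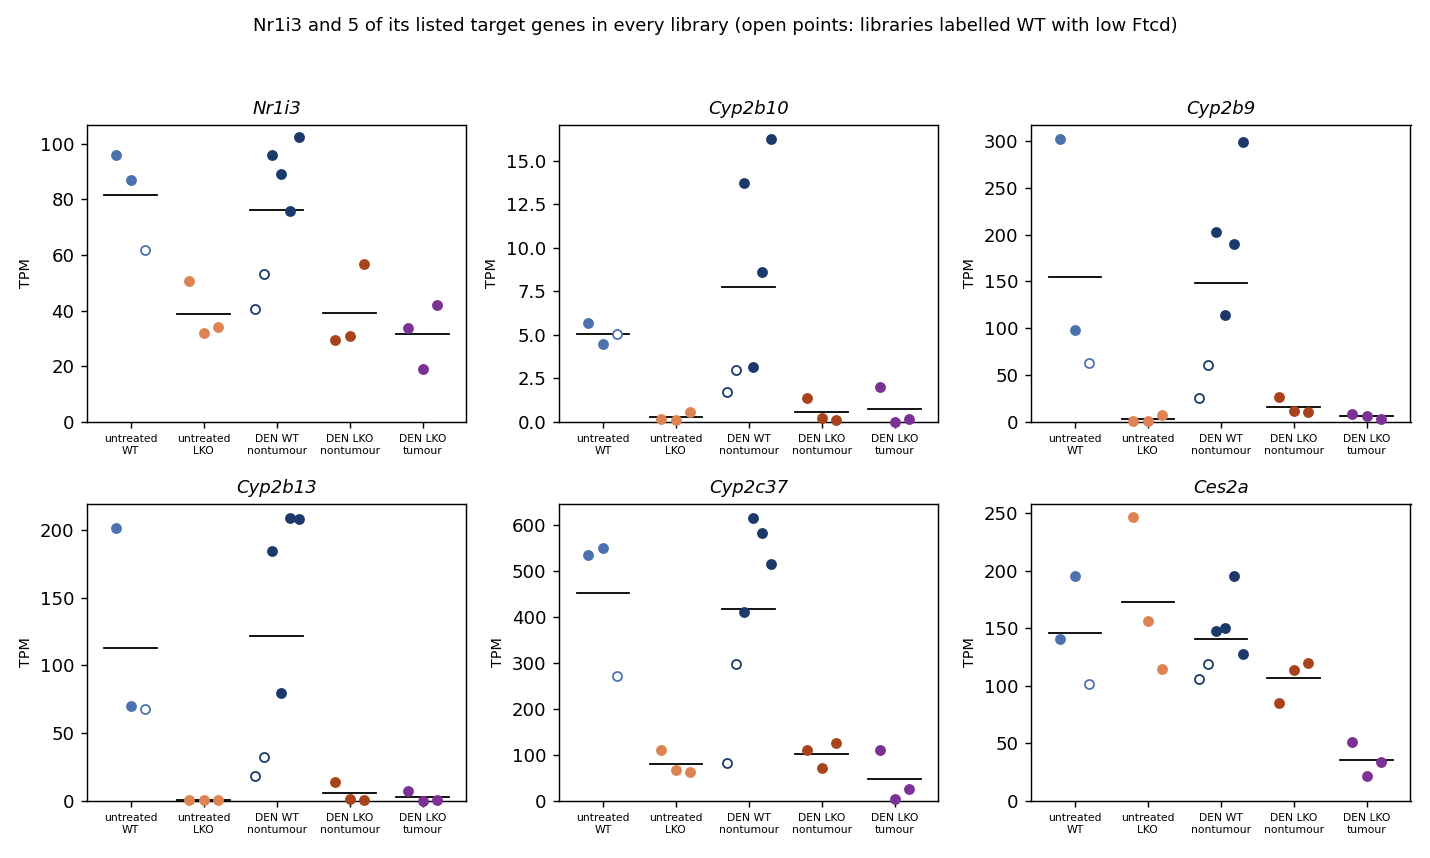
TPM of Nr1i3 and of 5 of its listed targets (Cyp2b10, Cyp2b9, Cyp2b13, Cyp2c37 and Ces2a) in every library by group; lines are group means and open points the libraries labelled WT with low Ftcd. Cyp2b9 and Cyp2b13 were near 0 in untreated LKO liver (0.24 to 6.88 TPM), and Ces2a is lower in the 3 tumours than in any other library.

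Of the 28 tested receptors outside the 9, and of the 17 dimer partners and coregulators, none passed between genotypes. Rxra, the dimer partner of Nr1h4, Nr1i2 and Nr1i3, was at 15.3 to 31 TPM in DEN LKO nontumour and 20.9 to 132 TPM in DEN WT liver (-1.25 ± 0.50, adjusted p = 0.352 by limma). Without the low-Ftcd libraries labelled WT it was -1.71 and passed (adjusted p = 0.0436 by limma), in the fit where the mitochondrial shares of the groups do not overlap. Ppara, the fatty acid receptor, was at -1.01 ± 0.53 and Nr5a2 (LRH-1), whose action on bile acid genes Nr0b2 represses, at -0.13 ± 0.35 in the same comparison. Of the 26 other hepatocyte factors, 0 passed in DEN nontumour liver, where their median was -0.24 and 19 were below 0. For all tested genes the median was -0.19, and 62% were below 0.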

How the data were processed

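RNA of mouse liver or tumour was sequenced as 18 libraries, from TRIzol extracts with TruSeq kits, per the labels' protocols. The authors deposited TPM values per gene and library, with fastp, HISAT, RSEM and the mm10 build named in the submitters' processing notes without versions or roles. The table holds no counts, so depth and counting error are unknown. It also holds 5 columns of the authors' group means, which equal the library means within 3.3e-05 and were not used further. Groups came from the sample labels.

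Genes with 1 TPM or more in at least 3 of 18 libraries were kept (13872 genes). Log2(TPM + 1) was fitted with limma 3.58.1 (R 4.3.3, empirical Bayes with a trend) with 1 mean for each of the 5 groups, leaving 13 residual degrees of freedom. The p-values were adjusted by Benjamini-Hochberg over all tested genes in each comparison. A fold change on this scale understates that of genes near 0. Relations to the mitochondrial share used 100000 permutations. Promoters came from RefSeq and gene positions from GENCODE M21. The fits were tested on simulated data with independent noise for each gene and library. Such data hold no shift of a whole library, so that test does not cover the shifts seen here. Genes named are the 9 factors, up to 4 genes a list that passed in a comparison, set representatives of the lists (such as Rxra, Cyp7a1 and Alb; 1 is not reported here), and the 3 genes most like each factor. The factors and lists were chosen with earlier results of these data known. Replicate numbers are shared between groups, but deviations of same-numbered libraries did not all correlate above 0.1, so no block was used in the main fits. Between LKO tumour and LKO nontumour liver they correlated at 0.35, 0.3 and -0.03, and same-numbered libraries were of the same sex. These values cannot exclude that such libraries came from the same mouse, which the labels do not state.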

Additional observations from a re-analysis of the deposited data

Results flagged for a closer look

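In groups of 4 or more libraries, which here means the 6 DEN WT livers, a value was singled out where its gap to the next value took an unusually large share of the group's range by Dixon's critical values. Of the 29 genes examined, 3 had such a library and none was among the 9 factors, and chance alone flags about 1 in 20. Nr5a2 was at 14.88 TPM in DEN WT replicate 6, where the next highest library had 6.04 TPM. Cyp3a11 was at 30.69 TPM in DEN WT replicate 1, where the next lowest had 220.66 TPM. Cyp2c37 was at 83.09 TPM in the same library, where the next lowest had 297.89 TPM. DEN WT replicate 1 is also a library of low Ftcd and the one with the highest mitochondrial share, 38.8%.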

How the results depend on the processing

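The count of the 9 factors that passed changed under 1 alternative. Without the 3 libraries labelled WT with low Ftcd it was 1 (Nr0b2) between DEN LKO and DEN WT nontumour liver and 1 (Nr1i3) between LKO tumour and DEN WT liver, where 1159 and 420 of all genes passed in place of 8 and 69. Every DEN WT library left in these fits had a smaller mitochondrial share than any DEN LKO library. Over 1098 refits of the factors' folds, 131 changed sign, all of estimates that had not passed, and 78 of these came from the 540 fits without 1 library. In those 540 none passed. Leaving out 1 library gave -1.26 to -0.93 for Nr1i3 in untreated liver, -1.48 to -0.93 for Nr1i3 in tumour against DEN WT liver and -2.07 to -1.59 for Nr0b2 in DEN nontumour liver. With the replicate block, 0 factors passed in each of the 6 comparisons, and 10 genes in all passed between the untreated genotypes and 3 between the LKO groups, in place of 60 and 9; 0 passed in the others. Over all alternatives the count of genes that passed ran from 10 to 96 for the untreated genotypes, from 0 to 1159 for DEN nontumour liver, from 0 to 21 between tumour and LKO nontumour liver, from 0 to 485 for tumour against DEN WT liver (485 without tumour replicate 1), from 0 to 189 between the LKO nontumour groups (189 with XX or XY as a covariate) and from 0 to 10 for the interaction. Median-ratio scaling called 96 genes between the untreated genotypes, 56 of them higher, against 24 of 60. The cause of these changes was not tested. The depth is unknown, which limits Foxa1 and Foxa2 most, with single libraries under 1 TPM.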
